A study of Mus musculus with 11 samples.

Results

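The cytochrome P450 genes described here are the mouse genes whose array symbol begins with Cyp and a digit, without the Cyp3a genes, Cyp51, Cyp7a1, Cyp7b1, Cyp8b1 and Cyp27a1. This rule took 113 of the 45281 probes on the array, which stand for 75 of its 19057 genes and 30 subfamilies. The probes were read on Illumina bead arrays, 1 array per RNA sample, in liver and spleen of Her2/neu transgenic mice given either plain drinking water or Curaxin-137 in it, a DNA-binding small molecule of the curaxin class. The mice were treated for 10 weeks, from 4 to 14 weeks of age, at 0, 0.1 or 0.2 mg/ml. In liver there were 2 control arrays (replicates 1 and 25), 2 at 0.1 mg/ml (43 and 55) and 2 at 0.2 mg/ml (73 and 85). In spleen there were 1 control array (replicate 8), 2 at 0.1 mg/ml (56 and 32) and 2 at 0.2 mg/ml (62 and 62_86), and the last pair shares a number in its labels. All mice carried the transgene, so the controls share it. The promoter of the transgene, the strain and the sex of the mice are not given in the sources used here.

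P450 enzymes are haem proteins, most of them in the endoplasmic reticulum, that take electrons from the reductase Por and oxidise drugs, steroids, fatty acids, retinoids and toxins. The liver holds most of the body's drug-oxidising P450s, and the nuclear receptors Nr1i3 (CAR), Nr1i2 (PXR) and Ppara and the aryl hydrocarbon receptor Ahr raise particular subfamilies when foreign compounds or lipids bind or activate them. In mice, several Cyp2a, Cyp2b, Cyp2c, Cyp2d and Cyp4a genes also differ between the sexes.

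Promoters of selected Cyp2c members and of Cyp26a1 are shown first. They cover the 250 bases before and the 50 bases from the annotated start of each gene, in RefSeq's table for GRCm38.p6, which held a window for 53 of the 75 members. The Cyp2c windows are shown because Cyp2c genes made up the largest subfamily in liver, with 10 kept genes, and because Cyp2c50 and Cyp2c37 both read higher at the higher dose. The windows of Cyp2c39, Cyp2b9 and Cyp4b1 are not shown, nor is that of Cyp2c55, which lacks the motif marked here. Capitals mark the motif CAAAGT, the opening letters of a site that the liver factor Hnf4a is known to bind. The windows are Cyp2c50 (chr19:40089429-40089728, plus strand), Cyp2c37 (chr19:39992174-39992473, plus strand), Cyp2c70 (chr19:40187237-40187536, minus strand) and Cyp2c29 (chr19:39286835-39287134, plus strand).
Cyp2c50: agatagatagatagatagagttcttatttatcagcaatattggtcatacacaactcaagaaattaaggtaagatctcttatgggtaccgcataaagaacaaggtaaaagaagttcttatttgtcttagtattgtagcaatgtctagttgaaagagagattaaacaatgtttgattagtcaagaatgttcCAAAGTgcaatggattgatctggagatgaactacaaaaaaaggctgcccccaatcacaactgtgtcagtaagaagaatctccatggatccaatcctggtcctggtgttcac
Cyp2c37: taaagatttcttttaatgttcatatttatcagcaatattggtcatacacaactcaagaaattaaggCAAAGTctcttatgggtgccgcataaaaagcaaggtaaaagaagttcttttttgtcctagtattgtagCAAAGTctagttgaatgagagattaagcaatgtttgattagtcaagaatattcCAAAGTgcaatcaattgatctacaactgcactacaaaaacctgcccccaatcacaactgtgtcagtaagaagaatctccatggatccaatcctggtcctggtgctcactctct
Cyp2c70: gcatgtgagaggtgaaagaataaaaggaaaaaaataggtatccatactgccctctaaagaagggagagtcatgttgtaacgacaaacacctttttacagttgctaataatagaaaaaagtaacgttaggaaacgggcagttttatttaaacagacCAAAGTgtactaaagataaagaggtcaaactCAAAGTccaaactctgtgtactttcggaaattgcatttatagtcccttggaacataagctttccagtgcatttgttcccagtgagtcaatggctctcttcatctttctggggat
Cyp2c29: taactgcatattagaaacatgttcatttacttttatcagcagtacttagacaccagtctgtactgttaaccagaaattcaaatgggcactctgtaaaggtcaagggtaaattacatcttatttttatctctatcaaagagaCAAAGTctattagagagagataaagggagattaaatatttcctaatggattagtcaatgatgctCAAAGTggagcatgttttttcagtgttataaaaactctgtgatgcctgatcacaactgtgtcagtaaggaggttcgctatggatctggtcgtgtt

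The motif was searched on both strands. It was found in 7 of the 8 Cyp2c members kept in liver that have a window and in 7 of the 27 other kept members, against 14.4% of all 32851 windows. Cyp2c37 held it 3 times, beginning 184, 116 and 63 bases before the start, and Cyp2c50 held it once, 61 bases before the start. The windows of these 2 genes share long runs of letters, so the Cyp2c matches are not independent of each other. The 2 promoters of Cyp2b9 and Cyp2b13, a pair of neighbouring female-predominant genes, were identical at 298 of 300 positions without gaps. In all, 10 motifs were looked for after the data had been seen, and the 2 shown were chosen from them. The second was a pair of TGAACT, a half-site of the retinoic acid receptor, with 5 bases of any kind between the copies, in Cyp26a1 (chr19:37697558-37697857, plus strand), whose level was higher in one control liver than in the other 5. It began 32 bases before the start, is marked in capitals, and was found in 8 of the 32851 windows.
Cyp26a1: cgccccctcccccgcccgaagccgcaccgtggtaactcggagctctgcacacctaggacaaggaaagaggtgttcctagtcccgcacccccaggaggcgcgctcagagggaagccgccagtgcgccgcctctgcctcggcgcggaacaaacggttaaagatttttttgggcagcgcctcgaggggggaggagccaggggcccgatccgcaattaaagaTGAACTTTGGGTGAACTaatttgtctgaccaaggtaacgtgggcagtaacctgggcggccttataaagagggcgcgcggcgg
A match is a run of letters and says nothing of binding in these tissues.

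Of the 75 genes, 50 were kept in liver, meaning that 2 or more of its arrays gave a detection p-value under 0.05. In spleen 18 were kept, 17 were kept in both tissues and 24 in neither. A total of 37 genes had a probe detected on all 6 liver arrays, and 12 had one on all 5 spleen arrays. The 14 genes with no detected probe on any array included Cyp1a1, the inducible target of the aryl hydrocarbon receptor, Cyp2a4, Cyp2c38, Cyp2c40 and 6 of the 7 Cyp2j genes. The other 10 genes kept in neither tissue were Cyp11a1, Cyp11b1, Cyp24a1, Cyp2b13, Cyp2c68, Cyp2d34, Cyp2t4, Cyp4f39, Cyp4f40 and Cyp4x1. All levels below are background-corrected, quantile-normalised log2 intensities. A level is compared between arrays for 1 probe, never between probes. The tissues matched their labels. Apoa1, Apoa2 and Ttr lay above 13 in liver and at or below 5.26 in spleen, and the B cell gene Cd79b lay between 11.27 and 12.21 in spleen and at or below 4.80 in liver. The probe for Alb was dim in liver, between 5.21 and 5.91. Between 35.8% and 43.2% of all probes were detected per array, and the mean unscaled signal ranged from 94.7 to 218.7. In whole tissue, fewer cells of a type and less RNA per cell cannot be told apart. The labels do not say how the mice were housed or bred, so the p-values cover only the scatter among these 11 samples, which may be technical in part.

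Because several members are sex-biased, genes of the sex chromosomes were read in all 11 arrays. All 4 Xist probes were undetected on every array. For the Y-linked genes, 1 of 2 Kdm5d probes and 1 of 4 Uty probes were detected on all 11 arrays, and the 2 Eif2s3y probes on 1 and 2 arrays. Among liver genes known as male-biased in mice, Mup20 lay between 10.98 and 11.95 and Hsd3b5 between 8.96 and 11.34. The male-biased Slco1a1 was not kept in liver. Of the genes known as female-biased, Sult2a1, Sult2a2, Sult3a1, Hao2 and Trim24 were not kept, while Acot3 lay between 5.65 and 8.17, Rtp3 between 6.35 and 7.09 and Cux2 between 4.28 and 4.79.

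Most P450 members were higher in liver than in spleen. The comparison used 1 fit of all 11 arrays normalised together, and averaged the differences at matched treatments. Of the 51 members fitted, 44 passed limma's test at an adjusted p under 0.05, of which 39 were higher in liver and 5 in spleen. Over all 15680 features the test called 64.4%, with 26.4% higher in liver and 38% higher in spleen. Of the 51 members, 33 were kept in liver only and 1 in spleen only. They entered the fit through the tissue where they read higher, so their calls carry no support of their own. A total of 27 members were undetected on all 5 spleen arrays, and their differences are given as lower bounds against the lowest detected signal of each spleen array.

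The abundant drug-metabolising subfamilies made up most of the liver side. Cyp2e1, which oxidises ethanol and acetaminophen, lay between 13.35 and 13.55 in liver and between 4.31 and 4.73 in spleen. It was detected on 3 of the 5 spleen arrays. The difference was 8.99 ± 0.09 (SE, 6 liver and 5 spleen arrays, limma adjusted p = 1.95e-11), and no liver array came near the spleen arrays. Cyp2d9, a male-predominant testosterone hydroxylase, was 8.88 ± 0.11 higher (limma adjusted p = 2.78e-11). Cyp2f2, which activates naphthalene, was 7.93 ± 0.11 higher (limma adjusted p = 3.86e-11). Both were detected on 1 of 5 spleen arrays, between 4.17 and 4.41, and were kept through liver alone. These differences are set against a level mostly at background, so their true size is not fixed. The p-values of Cyp2d9 and Cyp2f2 carry no support of their own.

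Within Cyp2c, 9 members were called higher in liver and Cyp2c65 was not called. Cyp2c70, which makes muricholic acids in rodents, was at least 284-fold higher in liver, and Cyp2c67 at least 254-fold. The fatty acid oxidases Cyp2c50 and Cyp2c37 were at least 186-fold and at least 153-fold higher, and Cyp2c23 at least 143-fold. The Cyp2c37 bound is for its brightest probe, which was kept through liver alone, so its call carries no support of its own. Another kept probe of Cyp2c37 was detected on 4 liver and 2 spleen arrays. Cyp2c29 was at least 9.27-fold and Cyp2c54 at least 8.34-fold higher. Cyp2c55 was the least different called member of the group, at least 1.18-fold higher.

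The Cyp2d members followed the same direction. Cyp2d10 was at least 231-fold higher, Cyp2d26 at least 92.3-fold and Cyp2d13 at least 26.1-fold. Cyp2d22 was detected on all 11 arrays and still differed by 5.99 ± 0.14 (SE), from between 5.37 and 6.04 in spleen to between 11.44 and 11.76 in liver. Cyp1a2, which clears caffeine and arylamines, was at least 162-fold higher in liver. Of the Cyp4a group of fatty acid hydroxylases, Cyp4a12a was at least 135-fold higher, Cyp4a31 at least 7.73-fold and Cyp4a12b at least 5.10-fold. Cyp4a14 was detected on 1 of 5 spleen arrays, between 4.19 and 4.38, and differed by 2.27 ± 0.24 (SE) from that level, which is mostly background.

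A small set ran the other way. Cyp1b1, an extrahepatic enzyme of oestrogen and hydrocarbon metabolism, was undetected on all 6 liver arrays. It lay between 8.13 and 8.48 in spleen, at least 14.6-fold higher there. It was the 1 member kept in spleen and not in liver, so its call carries no support of its own. Cyp4f18, which breaks down leukotriene B4 in mouse neutrophils, lay between 7.54 and 8.35 in spleen and between 4.15 and 4.79 in liver. Liver minus spleen was -3.41 ± 0.15 (SE, limma adjusted p = 3.89e-08). It was detected on 3 of 6 liver arrays, so its liver level is partly background and the size is not fixed. Cyp4f16, a related gene, differed by -2.39 ± 0.18 (liver minus spleen, limma adjusted p = 2.25e-06). The differences of the pseudogene Cyp4b1-ps2 (-0.63 ± 0.20) and of Cyp2s1 (-0.40 ± 0.14) were small, and both lost their calls in some settings. Their values also overlapped between the tissues. Cyp4b1-ps2 lay between 4.80 and 7.01 in spleen, where the control was the lowest array, and between 4.80 and 5.72 in liver. Cyp2s1 lay between 4.57 and 5.15 in spleen and between 4.16 and 4.67 in liver. Other Cyp4f genes were higher in liver. Cyp4f14 was at least 129-fold and Cyp4f15 at least 28.6-fold higher, and Cyp4f13, detected on all 11 arrays, was 1.25 ± 0.10 (SE) higher. The 7 members not called were Cyp21a1, Cyp2r1, Cyp26b1, Cyp39a1, Cyp4b1, Cyp2c65 and Cyp11b2, and the plot of liver minus spleen shows where each stands.

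**Figure D1:**
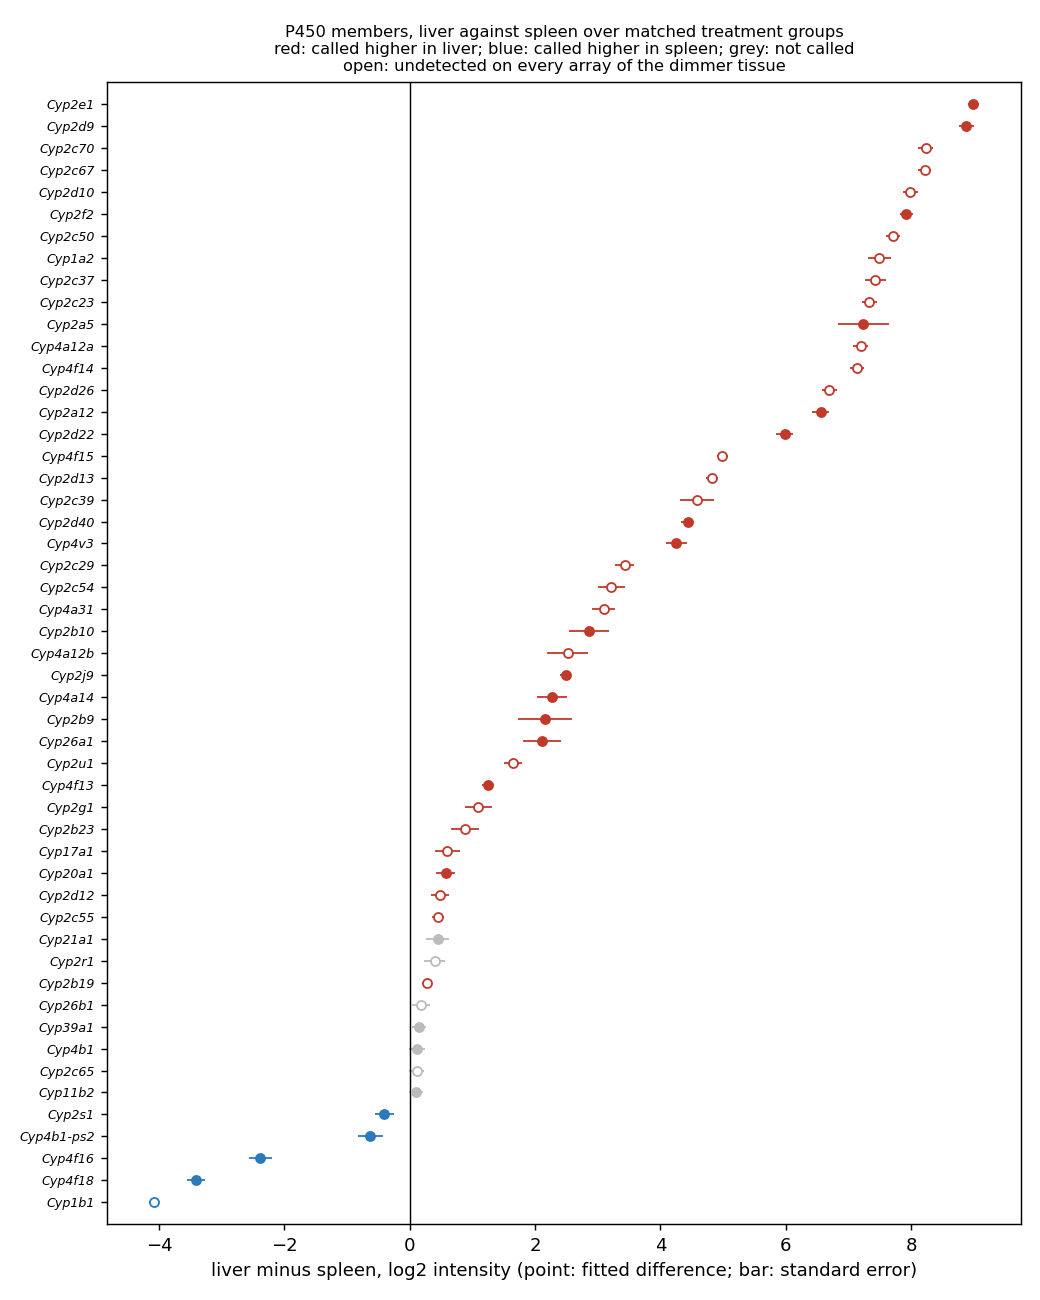
Fitted difference between liver and spleen for each of the 51 P450 members, in log2 intensity, with its standard error as a bar. The 39 members called higher in liver are red, the 5 called higher in spleen are blue, the 7 not called are grey, and open points were undetected on every array of the dimmer tissue.

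The dose comparisons in liver asked whether 10 weeks of Curaxin-137 changed these genes. None of the 50 members passed limma's test at an adjusted p under 0.05 at 0.1 mg/ml against water, at 0.2 mg/ml against water or between the doses, and the test called 0% of all 12800 features in each. The smallest adjusted p among members was 0.984, 0.309 and 0.270, in that order. At an unadjusted p under 0.05, 5 of 50 members (10%) passed at 0.1 mg/ml against 4.01% of all features, 8 (16%) at 0.2 mg/ml against 8.78%, and 9 (18%) between the doses against 9.51%. At 0.1 mg/ml these were 4 higher and 1 lower (2.13% and 1.88% of all features). At 0.2 mg/ml they were 7 higher and 1 lower (4.94% and 3.84%), and between the doses 6 higher and 3 lower (5.12% and 4.38%). The members' median difference was 0.02 at 0.1 mg/ml, 0.14 at 0.2 mg/ml and 0.04 between the doses, beside -0.0027, 0.01 and 0.01 for all features. The arrays of the 2 groups did not overlap, with the higher dose above, for 15 members at 0.2 mg/ml against water (30%, beside 20.2% of all features) and for 14 between the doses (28%, beside 25.3%). Those below numbered 7 (18.5% of all features) and 10 (22.8% of all features). At 0.1 mg/ml there were 10 above and 5 below, and 15.1% of all features in each direction. The controls are shared by both dose comparisons. The values that follow are described as values and not as changes. They are shown with their 95% intervals in the plot of liver dose differences.

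**Figure D2:**
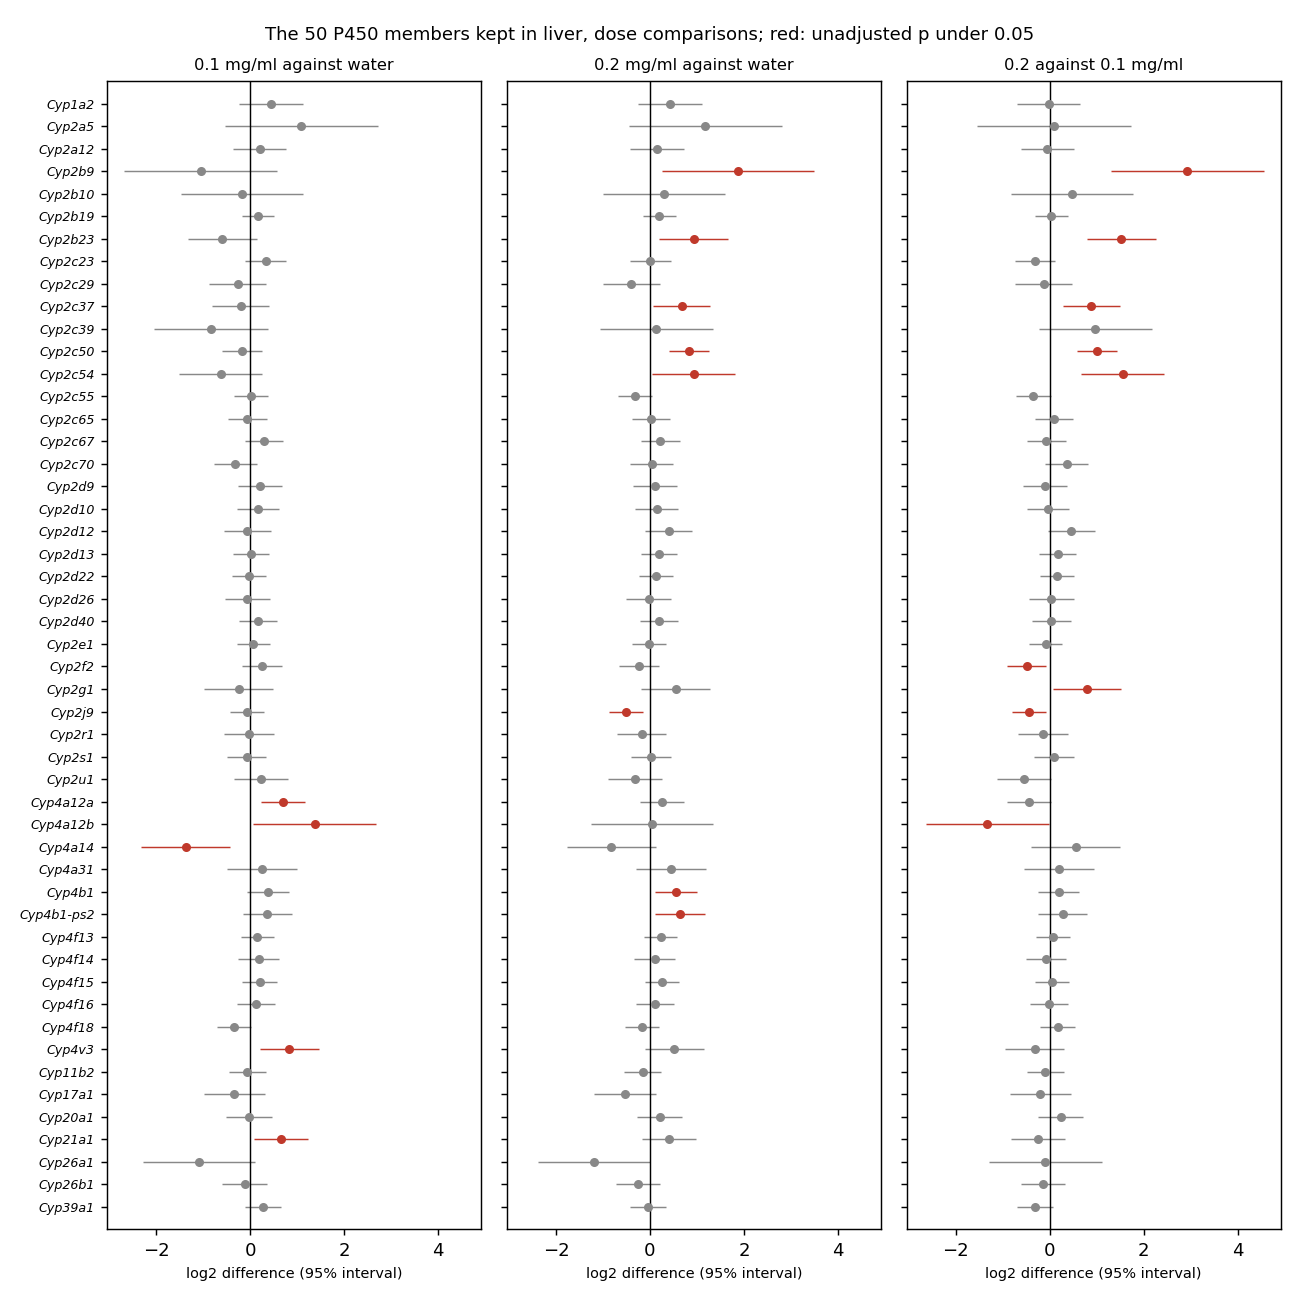
Log2 difference with its 95% interval for each of the 50 P450 members kept in liver, for 0.1 mg/ml against water, 0.2 mg/ml against water and 0.2 against 0.1 mg/ml. Red marks an unadjusted p under 0.05, which 5, 8 and 9 members reached, and none of the 50 members had an adjusted p under 0.05.

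The members with the smallest p between the doses belonged to Cyp2b and Cyp2c. Cyp2c50 read 11.94 and 11.57 in the controls (replicates 1 and 25), 11.61 and 11.53 at 0.1 mg/ml (43 and 55) and 12.69 and 12.47 at 0.2 mg/ml (73 and 85). Both high-dose livers stood above the other 4. The difference between the doses was 1.01 ± 0.18 (SE, n = 2 and 2, limma adjusted p = 0.270) and that between 0.2 mg/ml and water 0.83 ± 0.18 (limma adjusted p = 0.309). Its other 2 probes gave 1.12 and 0.92 between the doses. Cyp2c37 read 11.87 and 11.25 in the controls, 11.54 and 11.16 at 0.1 mg/ml and 12.48 and 11.99 at 0.2 mg/ml. Its high-dose livers also stood above the other 4 livers, with a difference of 0.89 ± 0.26 between the doses (limma adjusted p = 0.423). Its other 2 probes gave 0.91 and 0.75.

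Cyp2c54, another fatty acid oxidase of this subfamily, read 7.60 and 6.52 in the controls, 6.77 and 6.09 at 0.1 mg/ml and 8.30 and 7.67 at 0.2 mg/ml. The high-dose livers were the highest, with control replicate 1 close below them, and the difference between the doses was 1.56 ± 0.38 (limma adjusted p = 0.400). These 3 genes are close copies, so part of 1 gene's signal may come from another's transcript. Cyp2c39, which oxidises retinoic acid, read 7.94 and 9.86 in the controls, 8.16 and 7.96 at 0.1 mg/ml and 9.33 and 8.74 at 0.2 mg/ml. Its highest liver was a control.

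Cyp2b9, female-predominant in mouse liver, read 4.73 and 7.38 in the controls, 5.32 and 4.68 at 0.1 mg/ml and 8.19 and 7.66 at 0.2 mg/ml. The high-dose livers were above the other 4, but the controls lay 2.65 apart. The difference was 2.93 ± 0.71 between the doses (limma adjusted p = 0.400) and 1.87 ± 0.71 against water (limma adjusted p = 0.507). The difference of Cyp2b9 from water was 0.55 without control replicate 1 and 3.15 without replicate 25. Cyp2b23 read 4.20 and 5.28 in the controls, 4.16 and 4.13 at 0.1 mg/ml, where it was undetected, and 5.85 and 5.49 at 0.2 mg/ml. The high-dose mean was at least 2.42-fold that at 0.1 mg/ml (limma adjusted p = 0.379), but the gene was kept through the high-dose arrays, so this carries no support. Cyp2b10, the classical target of the receptor Nr1i3, read 5.95 and 7.81 in the controls, 7.18 and 6.22 at 0.1 mg/ml and 7.52 and 6.84 at 0.2 mg/ml. Its groups overlapped, and the difference between the doses was 0.48 (95% interval -0.82 to 1.78).

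**Figure D3:**
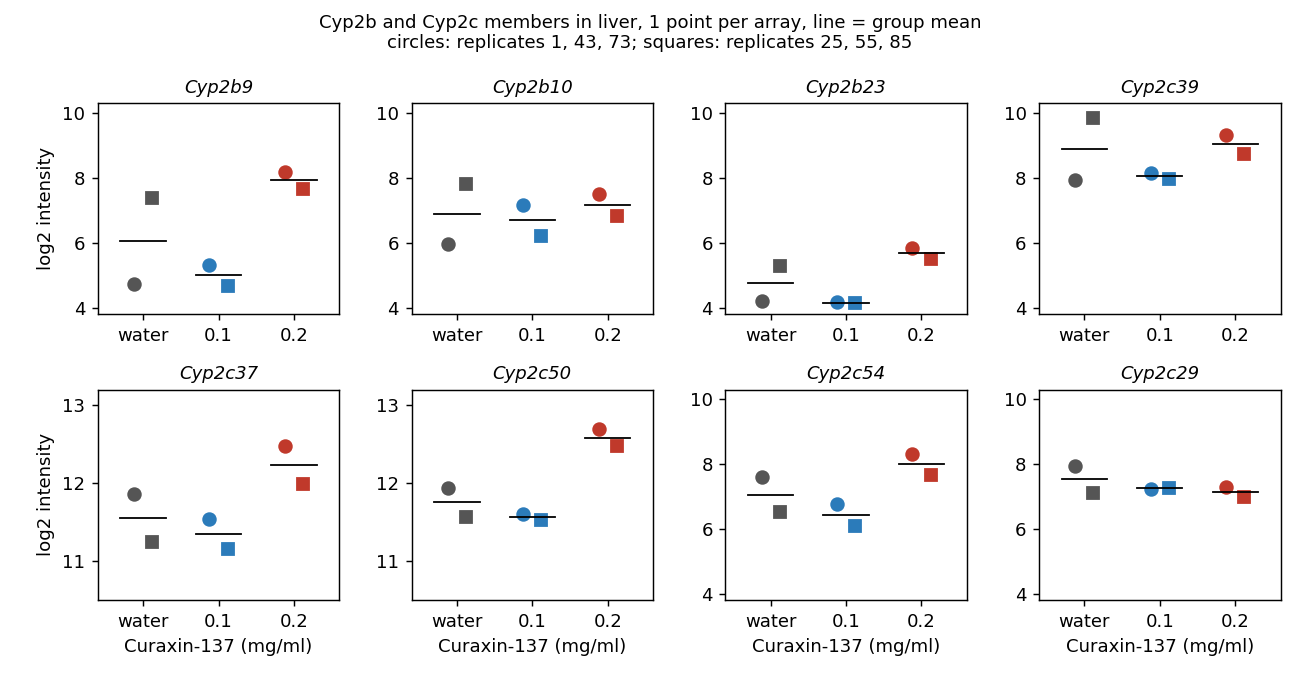
Log2 intensity of 8 Cyp2b and Cyp2c members in liver against the Curaxin-137 concentration in mg/ml, 1 point per array, with a line at each group mean. The 0.2 mg/ml arrays of Cyp2c50, Cyp2c37, Cyp2c54, Cyp2b9 and Cyp2b23 lie above the other 4 livers, while the 2 controls of Cyp2b9, Cyp2b10 and Cyp2c39 lie far apart.

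The comparison of the doses uses the means of treated livers, while its error also takes in the spread of the controls. Fitted on the 4 treated livers alone, a choice made after the data had been seen, 5 of 45 members passed limma's test at 0.2 against 0.1 mg/ml, where 1.46% of 11821 features passed. These were Cyp2b9 (2.86, adjusted p = 0.00147), Cyp2b23 (1.43, adjusted p = 0.00573), Cyp2c50 (1.03, adjusted p = 0.0182), Cyp2c54 (1.54, adjusted p = 0.0254) and Cyp2c39 (0.98, adjusted p = 0.0467). Leaving out either control leaves a lone control that adds no spread, so the residual spread again comes from the same 4 treated livers. Those fits are therefore no separate check of these members. Among the treated livers Cyp2b23 was detected at 0.2 mg/ml only, so it entered the fit through the group where it is high, and its call carries no support. Cyp2c37 did not pass (0.90, adjusted p = 0.0607 in the fit of treated livers alone). This fit has 2 residual degrees of freedom among samples, and it does not compare either dose with water. It was chosen with the spread of the controls known. Its p-values therefore do not replace those of the fit of all livers, in which no member passed. The stromal and endothelial list, with 12 of its 15 genes kept in liver, had a summed level of 3530 to 4195 at 0.1 mg/ml and 3854 to 4165 at 0.2 mg/ml. The neutrophil list, with 6 of 12 kept, summed to 136 to 167 and 291 to 423, and the macrophage list, with 12 of 14, to 1466 to 1589 and 1753 to 2194. The acute phase list, with 15 of 16 kept, summed to 34809 to 36671 and 40503 to 46185. The dendritic cell list (3 of 9 kept) summed to 66.6 to 72.2 and 79.8 to 83.6, the T cell list (3 of 9) to 59.0 to 62.5 and 66.8 to 82.4, and the B cell list (1 of 10) to at most 20.4 and at least 21.7. These last 6 lists were higher in both high-dose livers than in both low-dose ones. So was the hepatocyte list (10 of 12 kept), at 72399 to 75887 and 76589 to 76722. The sum of the P450 regulators (16 of 21) was higher too, at 5778 to 6079 and 6806 to 7278. By gene, 8 regulators read higher and 8 lower between the doses, with a median of 8.2e-05. The sum of the P450 partners (12 of 15) was lower, at 30532 to 31263 and 28647 to 29926. By gene, 7 partners read higher and 5 lower between the doses, with a median of 0.05. Their sum therefore does not stand for most of the list. The list of male-biased genes (8 of 9) was also lower, at 9571 to 11186 and 8279 to 9385. The adipocyte list (2 of 7) was lower, at 5125 to 5193 and 4119 to 4366. Its genes Adipoq, Plin1, Fabp4 and Retn were not kept, so this sum may not stand for fat cells. Their part in the result was not tested.

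Other subfamilies had single members that stood apart. Cyp4a12a, a male-predominant fatty acid hydroxylase, read 11.49 and 10.98 in the controls, 11.82 and 12.04 at 0.1 mg/ml and 11.50 and 11.50 at 0.2 mg/ml. The low-dose livers were highest (0.70 ± 0.20 against water, limma adjusted p = 0.984), and the high-dose livers read close to control replicate 1. Its close copy Cyp4a12b read 6.82 and 5.10, then 6.72 and 7.93, then 5.67 and 6.33, and overlapped the controls. Cyp4a14, a Ppara target that is higher in females, read 6.73 and 7.19 in the controls, 5.45 and 5.73 at 0.1 mg/ml and 6.87 and 5.41 at 0.2 mg/ml. Its difference at 0.1 mg/ml was -1.38 ± 0.41 (limma adjusted p = 0.984), and the 2 high-dose livers lay on either side of that range.

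Cyp4v3, a fatty acid hydroxylase, read 11.31 and 10.49 in the controls, 11.56 and 11.91 at 0.1 mg/ml and 11.54 and 11.29 at 0.2 mg/ml. Cyp2j9, which oxidises arachidonic acid, read 6.88 and 6.82 in the controls, 6.88 and 6.69 at 0.1 mg/ml and 6.39 and 6.31 at 0.2 mg/ml. Its high-dose livers were the 2 lowest of the 6, with a difference of -0.50 ± 0.16 against water (limma adjusted p = 0.423). Cyp2f2 read 12.43 and 12.04, then 12.41 and 12.56, then 11.97 and 12.03, which puts the high-dose livers just below the other 4. Cyp4b1 and Cyp4b1-ps2 differed by 0.56 ± 0.19 and 0.64 ± 0.23 between 0.2 mg/ml and water (limma adjusted p = 0.463 and 0.476).

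Several members had a narrow range over the 6 livers. Cyp2e1 read between 13.35 and 13.55 in the 6 livers, and the 95% interval of its difference at 0.2 mg/ml against water was -0.38 to 0.33. This is near the top of the scale, where Apoa2 and Hpx reached 13.59, and whether the probe was saturated was not tested. Cyp2d22 lay between 11.57 and 11.86, and Cyp4f13 between 9.16 and 9.47. Cyp1a2, the detected target of the aryl hydrocarbon receptor, read 11.98 and 11.01 in the controls, 11.99 and 11.89 at 0.1 mg/ml and 12.07 and 11.78 at 0.2 mg/ml. Its groups overlapped, and the difference at 0.2 mg/ml was 0.42 (95% interval -0.25 to 1.10).

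Of the remaining Cyp2c members, Cyp2c29, a target of Nr1i3, read 7.94 and 7.12 in the controls, 7.25 and 7.27 at 0.1 mg/ml and 7.29 and 6.97 at 0.2 mg/ml. Control replicate 1 was its highest liver and the other 5 lay close together. Cyp2c70 lay between 12.13 and 12.82, Cyp2c67 between 12.02 and 12.53 and Cyp2c23 between 11.32 and 11.94, each with overlap between the high dose and the controls. Cyp2c55 was detected in both controls and both low-dose livers, between 4.46 and 4.69, and in neither high-dose liver, so that the high-dose livers were the lowest, close to background.

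Of the 8 Cyp2d genes 7 were kept in liver. Cyp2d9 read 13.33 and 12.79 in the controls, 13.26 and 13.27 at 0.1 mg/ml and 13.11 and 13.23 at 0.2 mg/ml. Cyp2d10 lay between 11.93 and 12.41, Cyp2d26 between 10.77 and 11.22, Cyp2d13 between 8.81 and 9.20 and Cyp2d40 between 8.34 and 8.74. None of the 7 had an unadjusted p under 0.05 in a liver dose comparison. Among the Cyp4f genes, Cyp4f14 lay between 11.27 and 11.70. Cyp4f15 read 8.98 in both controls and between 9.09 and 9.31 in the treated livers. Cyp4f13 read 9.34 and 9.16 in the controls and between 9.38 and 9.47 in the treated livers, so that for both genes the 4 treated livers lay above the controls. Cyp4f18 was detected in both controls and in neither low-dose liver (-0.34 ± 0.16 at 0.1 mg/ml, limma adjusted p = 0.984).

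Among the dim members, Cyp21a1 (at 0.1 mg/ml against water) and Cyp2g1 (between the doses) had an unadjusted p under 0.05, and Cyp17a1 did not. Cyp21a1, which serves corticosteroid synthesis in the adrenal gland, was undetected in both controls, read 4.91 and 4.98 at 0.1 mg/ml, and read 4.30 and 5.09 at 0.2 mg/ml. The low-dose mean was at least 1.49-fold that of the controls (limma adjusted p = 0.984), but the gene was kept through the low-dose arrays, so this carries no support. The high-dose livers split. Cyp2g1, an olfactory P450, read 5.50 and 4.45 in the controls, 4.56 and 4.88 at 0.1 mg/ml and 5.38 and 5.65 at 0.2 mg/ml, and the high-dose livers overlapped with the controls. Its second probe gave 0.17 between the doses, where the probe shown gave 0.79. At 0.1 mg/ml against water the second probe gave 0.18 and the probe shown -0.25. Cyp17a1, which makes androgens, was highest in control replicate 25, at 5.32, and lay between 4.31 and 4.79 in the treated livers.

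The 2 control livers differed in their P450 genes more than most features did. They lay over 1 log2 unit apart in 9 of 50 members (18%) and in 459 of 12800 features (3.59%). Replicate 25 was the lowest of the 6 livers in 18 members (36%, beside 17.8% of all features). Cyp2a5, which oxidises coumarin and nicotine, read 12.17 in control replicate 1 and 9.38 in replicate 25, while the 4 treated livers lay between 11.78 and 11.95. Replicate 25 was thus the low liver for this gene. Cyp26a1, which clears retinoic acid, read 7.76 in control replicate 1 and 5.78 in replicate 25, with the treated livers between 5.47 and 5.78. Here replicate 1 was the high one and replicate 25 matched the treated livers. Its second probe differed from water by -0.04 at 0.2 mg/ml, where the first gave -1.18. Cyp2b9, Cyp2c39, Cyp2b10 and Cyp2b23 were higher in replicate 25 by 2.65, 1.92, 1.86 and 1.08, and Cyp4a12b, Cyp2c54 and Cyp2g1 were lower by 1.72, 1.08 and 1.05.

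**Figure D4:**
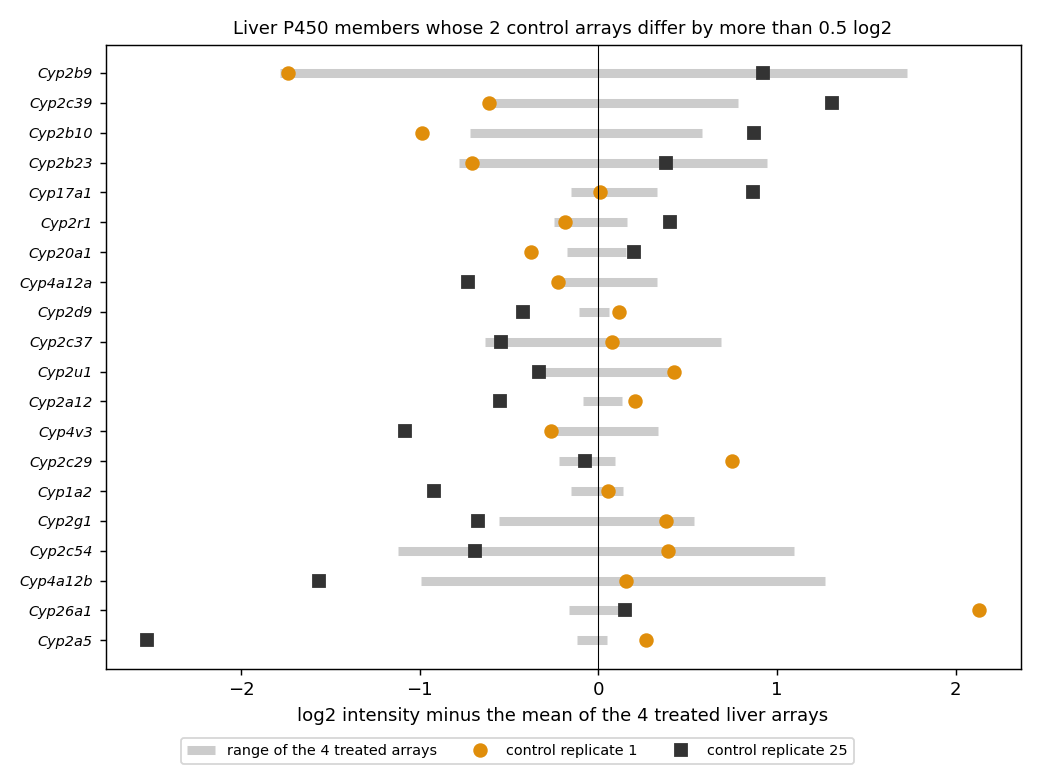
Log2 intensity of each control liver minus the mean of the 4 treated livers, for P450 members whose controls differ by more than 0.5, with the range of the treated livers as a grey bar. Control replicate 25 is the outlying array for Cyp2a5 and control replicate 1 for Cyp26a1.

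Other genes set these controls apart as well. The neutrophil list (6 of 12 genes kept) summed to 4363 in control replicate 25 and to 165 in replicate 1, and the acute phase list (15 of 16 kept) to 74396 and 31768. Their part in the P450 differences was not tested. Leaving out 1 control at a time gave different calls against water. Without replicate 25, 5 members passed limma's test at 0.2 mg/ml (4.93% of 12376 features passed), namely Cyp2b9 (3.15), Cyp26a1 (-2.15), Cyp2b23 (1.42), Cyp2c39 (1.10) and Cyp2c29 (-0.80). Without replicate 1, 4 passed (1.47% of 12343 features), namely Cyp2a5 (2.57), Cyp2c50 (1.02), Cyp2g1 (1.05) and Cyp2c54 (1.47). The 2 sets shared 0 members. At 0.1 mg/ml, 1 member passed without replicate 25 (Cyp26a1, -2.06; 0.17% of features) and 8 without replicate 1 (2.38% of features), among them Cyp2a5 (2.48), Cyp2b9 (-2.37) and Cyp4v3 (1.24), with 0 shared. In each of these fits the lone control was assumed to vary like the treated groups. Without replicate 25, Cyp2b23 was kept only through the high-dose arrays, so its call at 0.2 mg/ml carries no support.

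The partners and regulators of P450s in liver showed no called change. Of 15 partner genes 12 were kept, and of 21 regulators 16, and 0 of them passed limma's test in any liver comparison. The medians of the partner genes were 0.14 at 0.1 mg/ml and 0.04 at 0.2 mg/ml, and those of the regulators 0.04 and 0.27. The receptor Nr1i3 read 9.27 and 8.25 in the controls, 8.82 and 9.23 at 0.1 mg/ml and 9.29 and 8.78 at 0.2 mg/ml. The receptor Nr1i2 lay between 6.78 and 7.18 in the 6 livers. Bcl6, a repressor that is higher in male liver, read 8.21 and 7.80, then 8.71 and 8.22, then 7.15 and 7.21, with the 2 high-dose livers the lowest (-1.29 ± 0.22 between the doses, limma adjusted p = 0.270). Ephx1, an epoxide hydrolase that works beside P450s, differed by -0.79 ± 0.20 between the doses (limma adjusted p = 0.400). Of the 9 male-biased genes outside the P450s 8 were kept, with a median of -0.12 between the doses, and of the 9 female-biased genes 3 were kept, with a median of -0.02. The pericentral hepatocyte list (8 of 10 kept) had a median of 0.26 between the doses, the periportal list (7 of 10 kept) 0.06 and the general hepatocyte list (10 of 12 kept) 0.06. No gene of these 5 lists passed limma's test in a liver dose comparison.

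In spleen, 18 members were kept, and 0 passed limma's test at 0.1 mg/ml against water, at 0.2 mg/ml against water or between the doses. The test called 0%, 0% and 0.00705% of all 14179 features. At an unadjusted p under 0.05, 2 members passed at each dose against water (11.1%, beside 9.79% and 5.68% of all features) and 0 between the doses (9.01% of all features). Both pairs were higher than the control (4.66% and 3.26% of all features were higher, 5.13% and 2.42% lower). Between the doses, 4.93% of all features were higher and 4.08% lower. With 1 control array, no spread of the control group entered the test. Arrays above the control numbered 8 of 18 members at 0.1 mg/ml (44.4%, beside 34.3% of all features) and 10 at 0.2 mg/ml (55.6%, beside 36.8%), while 5 and 4 lay below (32.3% and 38.5% of all features). Between the doses 6 members lay above (20.4% of all features) and 1 below (20% of all features).

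Cyp4b1, which hydroxylates fatty acids and activates some lung toxins, had the smallest p in spleen. It read 4.56 in the control (replicate 8), 5.46 and 5.63 at 0.1 mg/ml (56 and 32) and 6.04 and 5.91 at 0.2 mg/ml (62 and 62_86). The 4 treated spleens were above the control, and both high-dose arrays were above both low-dose ones. The difference was 0.98 ± 0.27 at 0.1 mg/ml (limma adjusted p = 0.471) and 1.42 ± 0.27 at 0.2 mg/ml (limma adjusted p = 0.326). The pseudogene Cyp4b1-ps2 read 4.99 in the control, 6.40 and 7.30 at 0.1 mg/ml and 6.63 and 6.83 at 0.2 mg/ml. All treated arrays were again above the control, by 1.85 ± 0.40 and 1.74 ± 0.40 (limma adjusted p = 0.457 and 0.477), with no order of dose. The probes of the gene and the pseudogene may share signal, and their sequences are not used here. In these fits against water, leaving out 1 low-dose array sets 1 array against 1 control at 0.1 mg/ml, and the residual spread comes from replicates 62 and 62_86 alone. These share a number, and the labels do not say whether they are 1 animal, so the p-values may rest on technical scatter. On that basis, both differences against the lone control passed limma's test when replicate 56 was left out (15.2% of 13542 features passed at 0.1 mg/ml and 5.66% at 0.2 mg/ml) and when replicate 32 was left out (9.45% and 4.19% of 13797 features). Values were 0.88 and 2.05 at 0.1 mg/ml without replicate 56 for Cyp4b1 and Cyp4b1-ps2, and 0.96 and 1.45 without replicate 32. Cyp4b1-ps2 alone of the members also passed at 0.1 mg/ml when replicate 62 (0.521% of features) or 62_86 (0.867%) was left out.

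The summed levels of marker lists differed between these arrays, some above the control and some below. The stromal and endothelial list (13 of 15 genes kept, Lum not kept) summed to 3613 in the control, 2800 to 3119 at 0.1 mg/ml and 4716 to 4940 at 0.2 mg/ml. The adipocyte list (3 of 7 kept, with Plin1, Fabp4 and Retn not kept) summed to 62.5, 57.5 to 66.6 and 101 to 103. The pancreas acinar list had 1 of 12 genes kept. At 0.1 mg/ml the stromal and endothelial list lay below the control and the adipocyte list on either side of it. At 0.2 mg/ml both lay above the control. The macrophage list (10 of 14 kept) summed to 3873 in the control, 4072 to 6999 at 0.1 mg/ml and 6171 to 6713 at 0.2 mg/ml, above the control in all 4 treated spleens. So were the neutrophil and erythroid lists, whose sums are given below. The dendritic cell list (6 of 9 kept) summed to 585, 225 to 372 and 439 to 442, below the control in all 4. The part of these lists in the result was not tested. The erythroid list (4 of 8 kept) summed to 17600, 20535 to 32419 and 18724 to 20028, and the B cell list (6 of 10 kept) to 7854, 4049 to 8640 and 5880 to 6612.

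**Figure D5:**
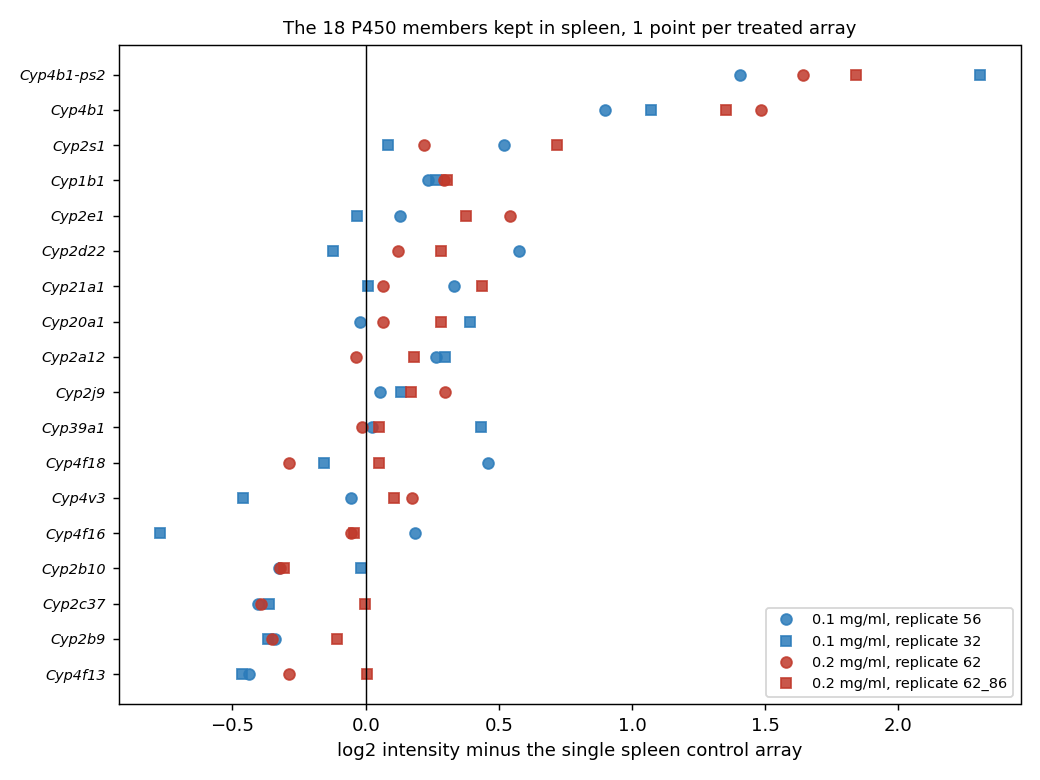
Log2 intensity of each treated spleen array minus the single control array for the 18 P450 members kept in spleen, blue for 0.1 mg/ml and red for 0.2 mg/ml. Cyp4b1-ps2 and Cyp4b1 are the 2 members whose treated arrays all lie more than 0.8 above the control.

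Of the members called higher in spleen than in liver, Cyp4b1-ps2 is described above. Cyp1b1 read 8.35 in the control, 8.58 and 8.61 at 0.1 mg/ml and 8.64 and 8.66 at 0.2 mg/ml. The treated arrays were above the control in a narrow band, by 0.25 ± 0.26 and 0.30 ± 0.26 (limma adjusted p = 0.797 and 1.00). Cyp4f18 read 8.08, then 8.54 and 7.93, then 7.80 and 8.13, and its 2 probes disagreed in sign at 0.1 mg/ml (0.15 and -0.72). Cyp4f16 read 7.91, then 8.10 and 7.14, then 7.86 and 7.87, so that replicate 32 was the low array. The neutrophil list (11 of 12 genes kept) summed to 1749 in the control, 2960 to 15319 at 0.1 mg/ml and 3706 to 4045 at 0.2 mg/ml, and its part in the Cyp4f18 values was not tested. Cyp4f13 read 8.56, then 8.12 and 8.09, then 8.27 and 8.57. Cyp4v3 lay between 6.84 and 7.48 in the 5 spleens and Cyp2d22 between 5.65 and 6.34, each with the control inside the range of the treated arrays. The other members kept in spleen lay nearer to background, such as Cyp2s1 between 4.69 and 5.41 and Cyp2e1 between 4.34 and 4.91. Of the P450 partners 11 of 15 were kept in spleen and of the regulators 8 of 21, and 0 passed limma's test in any comparison.

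The responses of liver and spleen were set against each other in the fit of all 11 arrays. None of the 51 members passed limma's test for a different response at 0.1 mg/ml (0% of all 15680 features passed), at 0.2 mg/ml (0.0446%) or between the doses (0.00638%), and 3, 2 and 8 members had an unadjusted p under 0.05 (10%, 8.47% and 8.14% of all features). Cyp2c50 had the smallest p between the doses, where its difference was 1.20 ± 0.25 larger in liver (limma adjusted p = 0.314). It was undetected on all 5 spleen arrays, so that this contrast compares a measured level with background. Cyp4b1-ps2 had a response at 0.1 mg/ml that was -1.35 ± 0.50 in liver minus spleen (limma adjusted p = 0.431), and Cyp4b1 -0.37 ± 0.31 (limma adjusted p = 0.744).

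Probes of the same gene were compared where several were kept. In liver, 11 members had several, and 9, 9 and 8 of them agreed in sign at 0.1 mg/ml against water, at 0.2 mg/ml against water and between the doses. Cyp4f16 disagreed in all 3 comparisons. In spleen 2 members had several, Cyp4f16 and Cyp4f18, and 1, 2 and 0 of them agreed in the same order of comparisons. The 5 probes of Cyp2a5 gave between 0.39 and 1.43 at 0.1 mg/ml against water, each with the same sign.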

How the data were processed

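Total RNA of frozen liver and spleen was amplified, labelled with biotin and put on Illumina mouse bead arrays, as the labels' protocols describe. In the deposited files, intensities are unscaled probe signals from GenomeStudio 1.6.0, per the submitters' processing notes, with a detection p-value beside each signal, per the file headers. The authors' deposited log2 values equal the quantile-normalised log2 signals within 5.00e-09. Values were computed from the signals with limma 3.58.1 in R 4.3.3 by neqc (normexp background from the detection p-values, offset 16, quantile normalisation, log2), per tissue. Probes were kept where 2 or more arrays of the tissue gave a detection p-value under 0.05, and the brightest kept probe stands for a gene. Probes without a symbol stayed as separate features. Platform annotation gave 1 symbol to all 113 member probes, and each matched RefSeq. This left 12800 features in liver, 14179 in spleen and 15680 in both together.

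The model for a tissue held a mean for each dose group (3 and 2 residual degrees of freedom, to which moderation added 5.11 and 4.74), and all 11 arrays together for tissue and interaction contrasts, with Benjamini-Hochberg adjustment over all features. The fit was tested on simulated data. Named members are up to 10 per direction with adjusted p under 0.05 and no overlap, or else the 5 per direction with the smallest p, with the detected members of the main subfamilies. Members and lists were chosen with earlier results of these data known. Summed list levels are linear normalised intensities. The lists cover P450 partners and regulators, sex bias, liver zones, the acute phase and markers of other cell types. Only arrays limit the precision, and each group holds 1 or 2. Alternatives were 75th percentile scaling, no background correction, the authors' deposited values, other filters, every probe, an intensity trend, all arrays together, averaging spleen arrays 62 and 62_86, and leaving out each array.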

Additional observations from a re-analysis of the deposited data

How the results depend on the processing

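The number of members passing limma's test was the same as reported, within 1.5 times, under each alternative that kept all arrays, for the 10 comparisons. Liver against spleen ranged from 41 to 45 members with an array left out. The other comparisons, at 0 members with all arrays, ranged with 1 array left out from 0 to 8 (liver 0.1 mg/ml), 0 to 5 (liver 0.2 mg/ml), 0 to 5 (liver between doses), 1 to 3 (spleen 0.1 mg/ml), 0 to 2 (spleen 0.2 mg/ml), 0 to 1 (spleen between doses) and 0 to 1 (each of the 3 liver minus spleen responses). The fit of the treated livers alone gave 5. Where 1 array remained in a group, its scatter was taken to equal that of the other groups, and the spleen control could not be left out against water.

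Directions turned for 6 values, all in spleen and none past the threshold. With 75th percentile scaling, 0.2 against 0.1 mg/ml became 0.080 for Cyp2a12, 0.13 for Cyp39a1 and 0.21 for Cyp2b10. With all 11 arrays fitted together, where another probe stands for the gene, Cyp2c37 became 0.056, 0.035 and -0.021 at 0.1 mg/ml, at 0.2 mg/ml and between the doses. With an array left out, Cyp4b1-ps2 between the doses ranged from -0.53 to 0.34, Cyp4f13 at 0.2 mg/ml from -0.29 to 0.0063, Cyp4f16 at 0.1 mg/ml from -0.74 to 0.19, and Cyp4f18 from -0.29 to 0.050 at 0.2 mg/ml and from -0.58 to 0.038 between the doses. The causes were not tested.

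Liver minus spleen of Cyp2s1 (-0.50 to -0.30 with an array left out) and Cyp4b1-ps2 (-0.76 to -0.48) kept its sign and lost its call in some settings. No paired analysis was possible because the labels share no replicate number between groups. The slide as a block was not run, since neither files nor labels used here give slides. Weak probes near background limit what the spleen can show.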
